A study of Homo sapiens with 12 samples.

Results

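The 9 annexin genes ANXA1, ANXA2, ANXA3, ANXA4, ANXA5, ANXA6, ANXA7, ANXA9 and ANXA11 were examined among the 20531 genes listed for an RNAseq experiment on SKBR-3 cells. They were picked by symbol, and the family was picked because ANXA1 was strongly higher after FOXA1 siRNA in these same libraries. The rise of ANXA1 with FOXA1 siRNA, and every other difference between the siRNAs among the members, is therefore given as a description with no test. The files list 17 symbols that start with ANXA. The remaining ones are copies of ANXA2, genes at or near 0 and the near-identical ANXA8 genes. The ANXA8 genes are outside the members, were not near 0 and were also higher with FOXA1 siRNA. They are given as a sum at the end.

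SKBR-3 is an established breast carcinoma line that carries amplified HER2 and lacks a functional estrogen receptor. Its cells were transfected with siRNA pools, non-targeting (NT) as the control or directed at FOXA1, followed by DMSO, the solvent, or 300 nM lapatinib, an inhibitor of the HER2 and EGFR kinases, for 24 h. The labels give 48 h of siRNA before the drug, whereas the methods give 24 h. This made 4 groups of 3 replicates: NT siRNA with DMSO, NT siRNA with lapatinib, FOXA1 siRNA with DMSO and FOXA1 siRNA with lapatinib. All libraries came from 1 line, each siRNA was 1 pool, and the labels do not say that the replicates were separate cultures, so p-values measure the spread between these samples, which may be technical. FOXA1 is a forkhead transcription factor that opens chromatin for nuclear receptors in luminal breast cells, and the comparisons ask which responses to HER2 inhibition depend on it.

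The libraries held from 25749578 to 32271850 estimated (expected) counts, with a median of 30542429. Values below are normalized counts, which are counts scaled by TMM to the average depth of the 12 libraries, unless a level per length is named. FOXA1 lay between 8307 and 13173 normalized counts in the 6 NT libraries and between 1159.8 and 2383 in the 6 FOXA1 siRNA libraries, with no overlap. A list of 7 markers of a luminal HER2-amplified line (ERBB2, GRB7, EPCAM, CDH1, KRT8, KRT18 and KRT19) had a summed level per length of 13400 to 21567 TPM over the 12 libraries, where TPM was recomputed from the expected counts and effective lengths of the listed genes. Of these markers the adhesion gene CDH1 had only 2 to 19 counts. ESR1, the estrogen receptor gene, had 12 to 42 counts, the leukocyte marker PTPRC at most 5 and the fibroblast marker COL1A2 at most 2. The other fibroblast markers had 240 to 546 counts (COL1A1) and 1 to 7.07 (PDGFRB). The endothelial markers had 42 to 95 counts (VWF) and at most 6 (PECAM1). The summed level of 3 immune markers was 16.2 to 46.7 TPM and came almost wholly from the lysosomal gene CD68.

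Annexins are cytosolic proteins that bind acidic phospholipids in membranes when calcium rises, through a conserved core of repeated domains, and each carries its own N-terminal tail that binds partner proteins. ANXA1 is a substrate of the EGFR kinase, is induced by glucocorticoids, restrains cytosolic phospholipase A2 and, once outside the cell, acts on formyl peptide receptors. ANXA2 binds S100A10 at the plasma membrane, where the complex holds plasminogen and its activator. Several annexins also help to close wounds in the plasma membrane. In breast epithelium ANXA1 is known to be high in basal (myoepithelial) cells and low in many luminal tumors.

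The upstream promoter sequences of 3 members are shown because these members had the largest rise with FOXA1 siRNA (ANXA1), a fall with FOXA1 siRNA at a like size in both drug arms (ANXA2), and a difference in the lapatinib response between the siRNAs (ANXA6). Each is the 250 bases before the RefSeq gene start in GRCh38.p14, written 5′ to 3′ on the strand of the gene. Capitals mark the letters TATAAA and, in ANXA2, the AP-1 letters TGAGTCA. The window of ANXA1 is chr9:73151615-73151864 (plus strand), that of ANXA2 is chr15:60397987-60398236 (minus strand) and that of ANXA6 is chr5:151157780-151158029 (minus strand).
ANXA1: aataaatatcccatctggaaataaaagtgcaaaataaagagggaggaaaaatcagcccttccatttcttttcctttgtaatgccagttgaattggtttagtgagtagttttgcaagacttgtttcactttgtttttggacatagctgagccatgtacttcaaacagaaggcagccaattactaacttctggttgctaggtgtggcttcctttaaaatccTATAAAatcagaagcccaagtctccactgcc
ANXA2: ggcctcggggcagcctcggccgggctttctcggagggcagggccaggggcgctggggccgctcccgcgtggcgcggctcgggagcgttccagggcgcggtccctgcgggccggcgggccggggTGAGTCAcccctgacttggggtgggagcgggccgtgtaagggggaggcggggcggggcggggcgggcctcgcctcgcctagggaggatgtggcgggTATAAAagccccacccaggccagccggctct
ANXA6: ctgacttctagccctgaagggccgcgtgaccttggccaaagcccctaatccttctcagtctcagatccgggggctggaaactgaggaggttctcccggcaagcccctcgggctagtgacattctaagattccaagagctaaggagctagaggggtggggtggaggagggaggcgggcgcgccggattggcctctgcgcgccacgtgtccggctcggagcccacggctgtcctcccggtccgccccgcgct

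RefSeq gave windows of 250 bases before and 50 after the start for 9 of 9 members, 13 windows in all, since some genes have several starts. None of the 13 held the forkhead letters TGTTTAC, nor TGTTTGC, nor likewise TATTTAC, nor the letters TATTTGC, on either strand, which occurred in 12.1% of 35116 windows of the same length. Other forkhead-like letters were not searched, among them GTCAACA, a form of the motif that the paper reports. The windows may hold such letters. The AP-1 letters TGANTCA, searched on both strands, occurred in 7.71% of all windows and in 1 of the 13, at position -127 of ANXA2. TATAAA, searched on the strand of the gene, occurred in 7.33% of all windows and in 3 of the 13, at -31 in ANXA1, at -31 in ANXA2 and at -61 in ANXA11. The ANXA1 window was low in G and C (37.7%, where 8.10% of all windows were at or below this value and their median was 58.7%), and the windows of the other members held 51.7% to 78.0%. These matches describe letters in short windows, and FOXA1 binding was not measured in these files. The paper reports FOXA1 ChIPseq of SKBR-3 cells, which was not examined here, so binding near the annexin genes was not tested.

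The members lie on several chromosomes. ANXA1 (gene ID 301) is at chr9:73151865-73170393 on the plus strand, ANXA2 (302) at chr15:60347151-60397986 on the minus strand, ANXA6 (309) at chr5:151100706-151157779 on the minus strand and ANXA9 (8416) at chr1:150977306-150995634 on the plus strand. ANXA3 (306) is at chr4:78551770-78610447 and ANXA5 (308) at chr4:121667946-121696980. ANXA7 (310) is at chr10:73375101-73414058 and ANXA11 (311) at chr10:80150889-80205808. ANXA4 (307) is at chr2:69643808-69827112. ANXA7 was the only member with exons that overlapped exons of another annotated gene (105 bases, a long non-coding RNA on the opposite strand), and the sources used here do not say if reads were counted by strand.

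Levels were compared between genes only after division by the effective transcript length and rescaling so that the listed genes of each library had the same sum (recomputed TPM). With NT siRNA and DMSO the order of these levels was ANXA6 (335 ± 6.64 TPM, SD, n = 3), ANXA7 (283 ± 16.6), ANXA11 (216 ± 15.0), ANXA5 (143), ANXA2 (93.8), ANXA4 (79.4), ANXA9 (14.8), ANXA3 (9.77) and ANXA1 (1.74 ± 0.22). No neighbors in this order overlapped in their samples. ANXA1 was thus the lowest member with NT siRNA, in DMSO and in lapatinib (1.43 TPM). With lapatinib and NT siRNA, ANXA4 (115) stood above ANXA2 (94.2) and ANXA3 (20.5) above ANXA9 (12.9), again with no overlap between neighbors.

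With FOXA1 siRNA and DMSO the top of the order was ANXA7 (316 TPM), ANXA11 (262) and ANXA6 (208), and ANXA1 (29.6) reached the level of ANXA9 (27.1), with overlapping samples. ANXA3 was then the lowest (5.96). With FOXA1 siRNA and lapatinib ANXA6 was again first (375), ANXA5 (132) and ANXA4 (119) overlapped, and ANXA3 (13.2) and ANXA1 (11.4) overlapped at the bottom. The summed level of the 9 members was 1176 ± 32.7 TPM with NT siRNA and DMSO and 1148 ± 24.8 with FOXA1 siRNA and DMSO, and it was 1369 ± 8.29 and 1360 ± 10.8 with lapatinib. ANXA1 made up 0.148% of this sum with NT siRNA and DMSO and 2.58% with FOXA1 siRNA and DMSO, whereas ANXA6 made up 28.5% and 18.2%. These sums count ANXA2 without its copies, are descriptions of levels per length and were not tested.

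**Figure D1:**
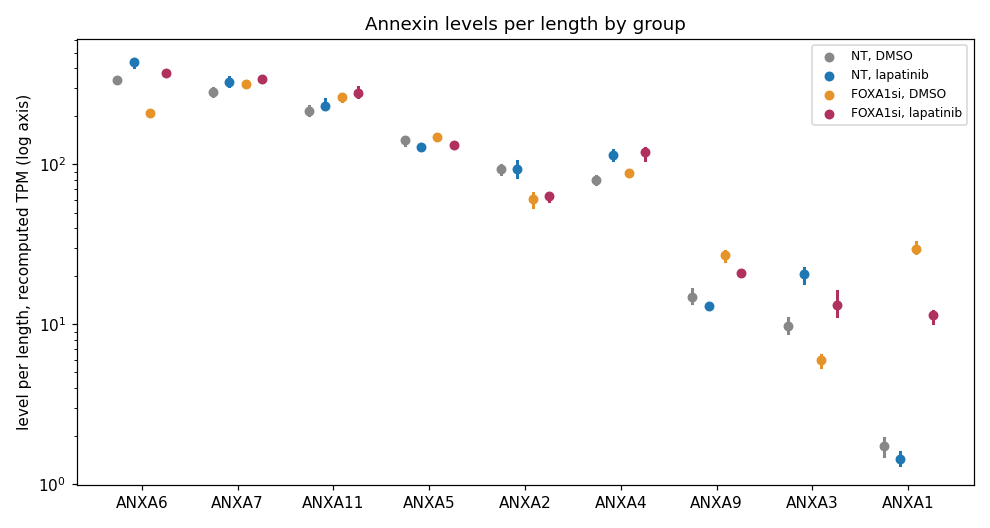
Mean level per length (recomputed TPM, log axis) of each annexin in the 4 groups, ordered by the NT siRNA DMSO group, with vertical lines from the lowest to the highest of 3 samples. ANXA1 is the lowest gene in both NT groups (1.74 and 1.43 TPM) and stands at 29.6 and 11.4 TPM with FOXA1 siRNA.

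ANXA1 had few counts with NT siRNA and was well measured with FOXA1 siRNA. Its normalized counts were 33.5, 38.7 and 35.5 with NT siRNA and DMSO and 27.3, 26.8 and 31.8 with NT siRNA and lapatinib. They were 656, 557 and 568 with FOXA1 siRNA and DMSO and 241, 204 and 235 with FOXA1 siRNA and lapatinib. All 6 FOXA1 siRNA samples were above all 6 NT samples, and within FOXA1 siRNA the lapatinib samples were all below the DMSO samples. The raw counts of 23 to 39 in the NT libraries carry a counting error of 16.0% to 20.9%, against 3.90% to 6.87% in the FOXA1 siRNA libraries. The means with FOXA1 siRNA were 16.6-fold those with NT siRNA in DMSO (log2 fold change 4.06, SE 0.12) and 7.91-fold in lapatinib (2.97, SE 0.15), values that belong to the choice of this gene. In these bulk libraries a change in the share of cells that express a gene and a change in the RNA per cell cannot be told apart. Beside this rise, the basal markers KRT5, KRT14 and TP63, 3 of 3 listed, had a mean summed level of 0.371 and 0.122 TPM in the NT groups (DMSO, lapatinib) and of 1.76 and 1.26 TPM in the FOXA1 siRNA groups, within 0.0533 to 2.26 TPM over all libraries. KRT14 had at most 11.25 counts and TP63 at most 10, and the part of these markers in the ANXA1 values was not tested.

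Lapatinib lowered ANXA1 2.62-fold in FOXA1-depleted cells, from a mean of 594 to a mean of 227 normalized counts (n = 3 each, SD 9.15% and 8.83% of the mean). The log2 fold change was -1.38 (SE 0.10, adjusted p = 1.8e-05, quasi-likelihood test of edgeR, adjusted by Benjamini-Hochberg as are all adjusted p-values here). With NT siRNA the change was -0.30 (SE 0.21, adjusted p = 0.256, same edgeR test), although the 3 lapatinib samples lay below the 3 DMSO samples. The difference between the lapatinib responses was -1.07 on the log2 scale (SE 0.19, adjusted p = 0.0067, edgeR interaction term on 12 samples). The FOXA1 siRNA DMSO libraries enter both this fall and the rise for which ANXA1 was chosen. These p-values are therefore not independent of the choice, and nothing is read from them. Even with both treatments ANXA1 stood 6.32-fold above NT siRNA with DMSO, with no overlap.

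**Figure D2:**
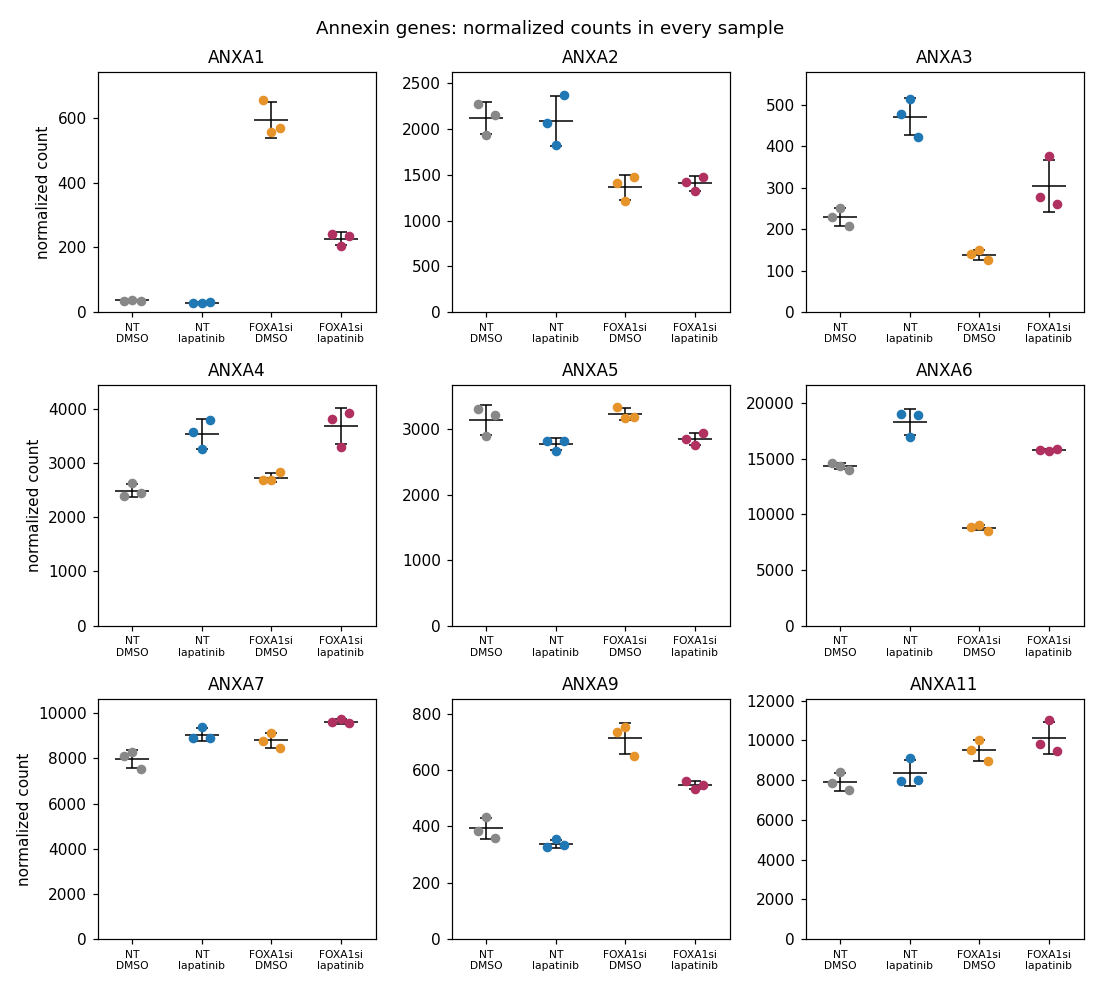
Normalized counts (linear axis from 0) of the 9 annexins in every sample, with the mean (horizontal line) and SD of 3 replicates. The ANXA1 panel runs from 26.8 to 656 normalized counts with the FOXA1 siRNA samples above all NT samples, and the ANXA6 panel has its lowest samples (8524 to 9019) with FOXA1 siRNA and DMSO.

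ANXA6, in which the annexin core is repeated within 1 protein and which brings the Ras regulator p120GAP and protein kinase C alpha to membranes, moved the opposite way. It had 14604, 14345 and 14023 normalized counts with NT siRNA and DMSO and 19033, 16974 and 18887 with NT siRNA and lapatinib. The FOXA1 siRNA samples had 8866, 9019 and 8524 in DMSO and 15783, 15698 and 15908 under lapatinib. The 4 groups did not overlap, the FOXA1 siRNA DMSO samples were lowest and the NT lapatinib samples highest. Lapatinib raised ANXA6 1.28-fold with NT siRNA (log2 fold change 0.37, SE 0.06, adjusted p = 0.00061, edgeR's quasi-likelihood test) and 1.79-fold with FOXA1 siRNA (0.85, SE 0.04, adjusted p = 2.5e-06, same edgeR test). The difference between these responses was 0.49 (SE 0.06, adjusted p = 0.0014, edgeR interaction term). As a description, the log2 fold change of FOXA1 siRNA against NT siRNA was -0.69 (SE 0.04) in DMSO and -0.22 (SE 0.05) in lapatinib. The lapatinib comparison with FOXA1 siRNA, the interaction and the siRNA comparison in DMSO share the FOXA1 siRNA DMSO libraries.

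ANXA3, an annexin of low level here that is abundant in neutrophil granules, had the largest rise with lapatinib among the members in both siRNA arms. Its normalized counts went from 229, 251 and 207 to 478, 514 and 424 with NT siRNA, and from 141, 149 and 125 to 277, 377 and 261 with FOXA1 siRNA. Neither pair of groups overlapped, and the widest spread of any member was in the last group (coefficient of variation 20.6%). The folds were 2.06 with NT siRNA (log2 fold change 1.06, SE 0.12, adjusted p = 9.2e-05, edgeR) and 2.21 with FOXA1 siRNA (1.15, SE 0.16, adjusted p = 0.00041, edgeR). The difference between the responses was 0.10 (SE 0.20, adjusted p = 0.837, edgeR), so no difference was detected at this precision.

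ANXA4, an annexin of secretory epithelia that assembles into arrays on injured membrane, rose as well. Its values were 2397, 2627 and 2451 in DMSO and 3569, 3257 and 3802 under lapatinib with NT siRNA, while FOXA1 siRNA gave 2684, 2693 and 2831 in DMSO and 3827, 3304 and 3938 under lapatinib. The lapatinib samples were above the DMSO samples in both arms. The rise was 1.42-fold with NT siRNA (log2 fold change 0.53, SE 0.07, adjusted p = 0.00035, edgeR) and 1.35-fold with FOXA1 siRNA (0.44, SE 0.07, adjusted p = 0.0008, edgeR).

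ANXA7, which fuses secretory granules and binds the calcium sensors sorcin and ALG-2, rose by a smaller amount. It had 8101, 8305 and 7529.7 normalized counts in DMSO and 8909, 9375 and 8885 under lapatinib with NT siRNA, while FOXA1 siRNA gave 8771, 9142 and 8483 in DMSO and 9605, 9741 and 9558 under lapatinib. The samples did not overlap in either arm, and the log2 fold changes were 0.20 (SE 0.05, adjusted p = 0.0117, edgeR) and 0.14 (SE 0.04, adjusted p = 0.0165, edgeR). The calls depended on single libraries, since the adjusted p by edgeR was 0.0724 with NT siRNA without NT DMSO replicate 3, and 0.0530 and 0.0727 with FOXA1 siRNA without FOXA1 siRNA DMSO replicate 1 or 3.

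ANXA5, the phosphatidylserine binder used as a probe of dying cells, was lower with lapatinib. It had 3316, 2894 and 3225 normalized counts in DMSO and 2824, 2666 and 2826 under lapatinib with NT siRNA, while FOXA1 siRNA gave 3348, 3175 and 3195 in DMSO and 2849, 2764 and 2949 under lapatinib. In both arms the DMSO samples lay above the lapatinib samples by a narrow gap, and the lapatinib mean was 0.881 of the DMSO mean in each. With FOXA1 siRNA the fall passed (log2 fold change -0.17, SE 0.05, adjusted p = 0.0117, edgeR), but not without FOXA1 siRNA DMSO replicate 1 (adjusted p = 0.0514, edgeR). With NT siRNA it did not pass (-0.16, SE 0.06, adjusted p = 0.0519, edgeR), and it passed with the replicate number as a block (adjusted p = 0.0094, edgeR) and without NT DMSO replicate 2 (adjusted p = 0.0061, edgeR).

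ANXA9, a divergent annexin whose core has lost calcium-binding residues, was low and fell with lapatinib in FOXA1-depleted cells. It had 385, 433 and 360.4 normalized counts in DMSO and 326, 354 and 334 under lapatinib with NT siRNA, while FOXA1 siRNA gave 735, 753 and 649.9 in DMSO and 561, 533 and 547 under lapatinib. No pair of these groups overlapped, and all FOXA1 siRNA samples were above all NT samples. The log2 fold change with lapatinib was -0.37 with FOXA1 siRNA (SE 0.08, adjusted p = 0.0031, edgeR) and -0.20 with NT siRNA (SE 0.10, adjusted p = 0.126, edgeR), and the difference of -0.16 did not pass (SE 0.12, adjusted p = 0.472, edgeR). As a description, the FOXA1 siRNA means were 1.81-fold the NT means in DMSO and 1.62-fold in lapatinib, so ANXA9 and ANXA1 were the members with the largest positive differences between the siRNAs.

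ANXA11, which binds S100A6 and ALG-2 and tethers RNA granules to lysosomes, and ANXA2 did not pass in any lapatinib comparison. ANXA11 had 7839, 8388 and 7505 normalized counts in DMSO and 7942, 9134 and 8009 under lapatinib with NT siRNA, while FOXA1 siRNA gave 9508, 10009 and 8981 in DMSO and 9837, 11016 and 9489 under lapatinib. The drug groups overlapped in both arms, with log2 fold changes of 0.10 (SE 0.07, adjusted p = 0.244, edgeR) and 0.10 (SE 0.06, adjusted p = 0.218, edgeR). With the replicate number as a block both passed in edgeR (adjusted p = 0.0408 and 0.0185). The FOXA1 siRNA means were 1.20-fold and 1.21-fold the NT means.

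ANXA2 had 2278, 1937 and 2158 normalized counts in DMSO and 2072, 1828 and 2373 under lapatinib with NT siRNA, while FOXA1 siRNA gave 1407, 1212 and 1477 in DMSO and 1417, 1318 and 1482 under lapatinib. The drug groups overlapped, and every FOXA1 siRNA sample lay below every NT sample. The log2 fold changes with lapatinib were 0.00 (SE 0.10, adjusted p = 0.998, edgeR) and 0.05 (SE 0.08, adjusted p = 0.628, edgeR). The differences between the siRNAs, as a description, were -0.62 in DMSO and -0.58 in lapatinib. ANXA2 shares sequence with processed copies, and the listed copy ANXA2P2 had 0.903 to 1.03 times the count of ANXA2 in the 12 libraries. The counts of ANXA2 and of its copies were whole in 12 of 12 libraries, and how reads that match several of these rows were assigned is not given in the sources used here, so the separate values are uncertain. Summing ANXA2 with its copies ANXA2P1, ANXA2P2 and ANXA2P3 gave -0.63 and -0.61 for the siRNA differences and 0.02 and 0.04 for lapatinib.

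Of the 9 members, all of which were tested in each comparison, 4 passed with lapatinib and NT siRNA, where 59.7% of the 13713 genes tested passed. All 4 (ANXA3, ANXA4, ANXA6 and ANXA7) were higher, where 30.5% of genes were higher and 29.2% lower. With lapatinib and FOXA1 siRNA 7 of 9 passed, where 58.1% of 13745 genes passed, with 4 higher (29% of genes) and 3 lower (29.1%). ANXA1 is among the 7 and among the 3 lower. Its fall uses the FOXA1 siRNA DMSO libraries that entered its choice, so nothing is read from its part in these counts. The medians of the members' log2 fold changes were 0.10 and 0.10, and those of all genes tested 0.03 and 0.01. The samples of the drug groups did not overlap for 7 of 9 members in each arm. The share of all genes without overlap was not computed, so nothing particular to the members is read from this count. A change of 1 or more in size on the log2 scale was met by 1 member with NT siRNA (13.8% of genes). With FOXA1 siRNA it was met by 2 (10.1%), of which ANXA1 is again not read. The interaction passed for ANXA6 and, from libraries that also entered the choice of the gene and so with nothing to be read from it, for ANXA1. Of the 14012 genes tested 7.19% passed (3.99% with a more positive and 3.2% with a more negative response in FOXA1-depleted cells).

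Between the siRNAs, in the comparison that the choice of the family used, the members are described by their log2 differences alone. ANXA1 (4.06 in DMSO and 2.97 in lapatinib), ANXA9 (0.87 and 0.69) and ANXA11 (0.28 and 0.27) were the members with the largest positive values. ANXA3 (-0.72 and -0.64), ANXA2 (-0.62 and -0.58) and ANXA6 (-0.69 and -0.22) had negative values in both arms. The values of ANXA7 (0.15 and 0.08), ANXA4 (0.15 and 0.05) and ANXA5 (0.06 and 0.03) were near 0. ANXA1 alone among the members differed by 1 or more in size. Outside the members, the summed ANXA8 genes with FOXA1 siRNA had means 6.06-fold (DMSO) and 6.49-fold (lapatinib) the NT means.

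**Figure D3:**
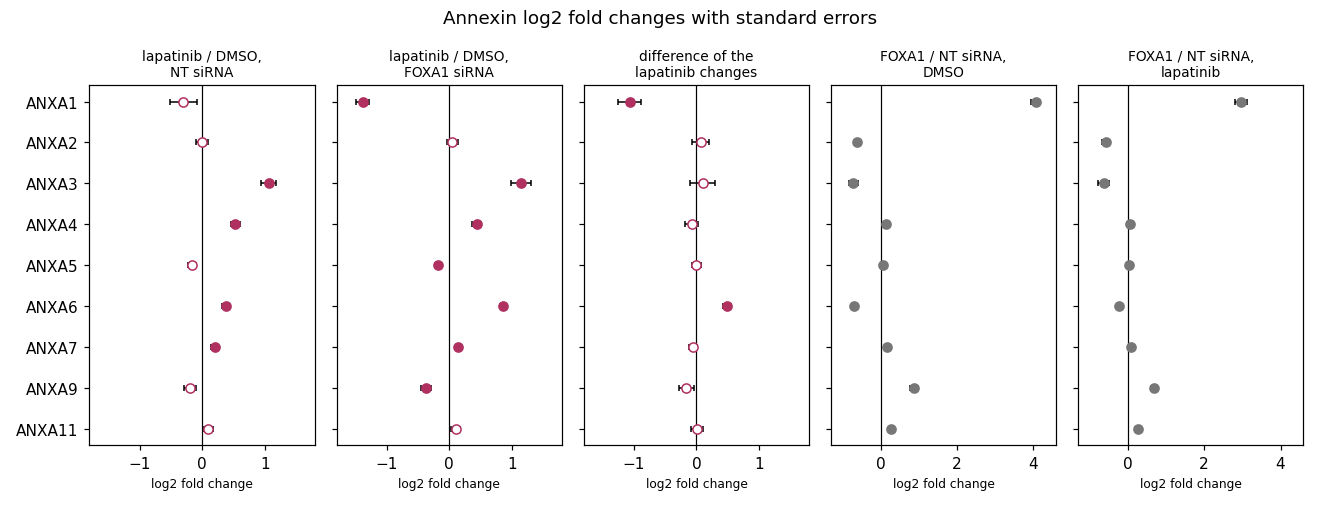
Log2 fold changes with SE (horizontal bars) of the 9 annexins in 5 comparisons. Filled red circles passed and open red circles did not (edgeR), and gray points are siRNA comparisons shown with no test. ANXA1 falls by 1.38 and ANXA6 rises by 0.85 with lapatinib in FOXA1-depleted cells. In the middle panel only these members passed for the difference of responses. The libraries behind both calls of ANXA1 also entered its choice, so nothing is read from these calls.

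The genes whose profile was most like ANXA1 were SNX3 (r = 0.990), TMEM41A (0.988), COPZ1 (0.988), SLC9A3R1 (0.987) and TSPYL4 (0.986), by Pearson correlation of log2 normalized counts over the 12 samples among 10812 genes with a mean of at least 100. The points share libraries and the 2 by 2 layout of the groups, so these values are a description with no p. Their changes were far smaller than that of ANXA1, as SNX3 ran from 2760 normalized counts with NT siRNA and DMSO to 3909 with FOXA1 siRNA and DMSO. None of the 5 was among the 5 genes with the highest Spearman correlation. For ANXA2 the closest were its copy ANXA2P2 (0.993) and RAB2B (0.977), for ANXA3 RGS10 (0.987) and ILK (0.984), and for ANXA4 CHRM1 (0.981) and SELENBP1 (0.980). For ANXA5 they were TH1L (0.980) and STAM (0.978), for ANXA6 SND1 (0.984) and CDR2L (0.978), and for ANXA7 CLDN3 (0.978) and LOC202781 (0.976). For ANXA9 they were SLC9A3R1 (0.988) and SCO1 (0.987), and for ANXA11 ITGA3 (0.969) and NFKBIZ (0.969).

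Genes that act with annexins were counted in 8 lists of 59 genes, of which 58 were listed in the files. With lapatinib 31 of 47 tested passed with NT siRNA (24 higher, 7 lower) and 35 of 48 with FOXA1 siRNA (26 higher, 9 lower). The totals include the sparse genes ALOX5 and ALOX5AP, from whose calls nothing is read. ALOX5 with NT siRNA and ALOX5AP with FOXA1 siRNA were tested only through a lapatinib group. Of all genes 59.7% and 58.1% passed. With NT siRNA 30.5% of all genes were higher and 29.2% lower, and with FOXA1 siRNA 29% and 29.1%. These shares are the background for each list below, and no list was tested as a set. Among the S100 proteins, the EF-hand partners of annexin tails, 2 of 5 rose and 1 fell in each arm. S100A10, the ligand of ANXA2, had 1865, 1512 and 1948 normalized counts in DMSO and 1356, 1186 and 1384 under lapatinib with NT siRNA, so that the groups did not overlap. It fell by 0.42 on the log2 scale (SE 0.10, adjusted p = 0.0076, edgeR) and with FOXA1 siRNA by 0.51 (SE 0.14, adjusted p = 0.0118, edgeR), while ANXA2 itself did not pass. S100A6, a partner of ANXA11, rose by 0.35 (SE 0.06, adjusted p = 0.00098, edgeR) and 0.18 (SE 0.04, adjusted p = 0.006, edgeR). S100A11, the partner of ANXA1, rose by 0.19 with NT siRNA (SE 0.04, adjusted p = 0.0046, edgeR), and its change with FOXA1 siRNA was 0.04 (adjusted p = 0.423, edgeR). S100A4, a partner of ANXA2 that promotes motility, rose by 0.13 with lapatinib and FOXA1 siRNA (0.12 with NT siRNA, which did not pass) and differed by 1.24 between the siRNAs in DMSO and in lapatinib.

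The formyl peptide receptors, on which secreted ANXA1 acts, were barely detectable. FPR1 had at most 1 count, FPR2 had 0 in all libraries and FPR3 had 1 to 16. FPR3, the only one tested, did not pass in either arm. A gene under 3 counts was taken as not detectable at this depth.

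Of the phospholipase A2 and eicosanoid enzymes, which release arachidonic acid and convert it, 3 of 7 tested passed as higher with lapatinib and NT siRNA and 4 of 8 with FOXA1 siRNA, with the sparse genes ALOX5 and ALOX5AP among them. PTGES, a prostaglandin E synthase, rose by 1.51 with NT siRNA (SE 0.15, adjusted p = 5.7e-05, edgeR) and by 0.99 with FOXA1 siRNA (SE 0.09, adjusted p = 3.6e-05, edgeR). ALOX5, the 5-lipoxygenase gene, had raw counts of 1, 3 and 2 in DMSO and 7, 11 and 4 under lapatinib with NT siRNA. With FOXA1 siRNA its counts were 3, 15 and 5 in DMSO and 39, 45 and 38 under lapatinib. ALOX5AP, which encodes its activating protein, had 0 to 4 counts in both NT groups, 2 in each FOXA1 siRNA DMSO library and 12, 17 and 13 with FOXA1 siRNA and lapatinib. Both genes reached the minimum of 10 counts with NT siRNA (ALOX5) or at all (ALOX5AP) only through a lapatinib group, so no fold is given and nothing is read from their calls. The difference of the lapatinib responses passed for 1 of 48 partner genes, which was ALOX5AP (7.19% of all genes passed). With the replicate number as a block this count was 14, in a fit where 2854 of 14012 genes passed. The count of partner genes was 4 without NT DMSO replicate 2, 4 without NT lapatinib replicate 2 and 3 without FOXA1 siRNA DMSO replicate 2. The shares of all genes in these smaller fits are not given here. PTGS1, a cyclooxygenase gene, differed by 2.32 between the siRNAs in DMSO and 1.92 in lapatinib, with a coefficient of variation of 42.0% to 53.2% in the DMSO groups.

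In the plasminogen system, which meets ANXA2 at the cell surface, only 3 of 7 listed genes had enough counts. PLAU, the urokinase gene, rose by 2.10 (SE 0.18, adjusted p = 2.9e-05, edgeR) and 1.96 (SE 0.16, adjusted p = 2.7e-05, edgeR). PLAUR, its receptor, fell by 0.79 with NT siRNA (SE 0.19, adjusted p = 0.0067, edgeR), and its change with FOXA1 siRNA was -0.11 (adjusted p = 0.49, edgeR). Of the membrane repair genes 7 of 10 rose with NT siRNA (30.5% of all genes), with a list median of 0.65. With FOXA1 siRNA 6 of 10 rose and 2 fell (29% and 29.1% of all genes), with a median of 0.44. AHNAK, a giant scaffold that binds S100A10 and ANXA2, rose by 1.42 (SE 0.07) and 1.32 (SE 0.16), and CAPN2, a calpain, rose by 0.95 (SE 0.05) and 0.89 (SE 0.03). DYSF and EHD1 fell by 1.20 and 0.15 with FOXA1 siRNA, and their changes with NT siRNA were -0.80 and -0.06, which did not pass.

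Of the ALG-2, sorcin and ESCRT genes, which work with ANXA7 and ANXA11, 5 of 8 rose and 1 fell with NT siRNA, and 4 rose and 2 fell with FOXA1 siRNA. TSG101 rose by 0.76 and 0.51 and VPS4B by 0.55 and 0.46, whereas VPS4A fell by 0.17 and 0.16 and CHMP4A by 0.22 with FOXA1 siRNA (-0.07 with NT siRNA, which did not pass). Of 5 tested kinase and Ras regulators bound by annexins, 1 rose and 2 fell with NT siRNA, and 2 rose and 2 fell with FOXA1 siRNA. RASA1, which encodes the p120GAP bound by ANXA6, rose by 0.26 and 0.32, SRC rose by 0.43 with FOXA1 siRNA (0.28 with NT siRNA, which did not pass), PRKCA, the protein kinase C alpha gene, fell by 0.35 and 0.60, and the adaptor gene GRB2 fell by 0.28 and 0.29.

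Of 8 genes of the glucocorticoid response, to which ANXA1 belongs, 4 rose and 2 fell with NT siRNA and 6 rose and 2 fell with FOXA1 siRNA. TSC22D3, a glucocorticoid-induced leucine zipper gene, rose by 1.07 and 0.86, and NR3C1, the receptor itself, rose by 0.83 and 0.67. KLF9, a hormone-induced transcription factor gene, rose by 0.76 and 0.92. FKBP5, a hormone-induced co-chaperone of the receptor, fell by 1.68 and 1.63, and SGK1, a hormone-induced kinase with few counts here, fell by 1.06 and 1.43. Between the siRNAs TSC22D3 differed by -1.18 in DMSO and -1.39 in lapatinib, while ANXA1 differed by 4.06 and 2.97. These siRNA values are descriptions.

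In all, 24 of 47 partner genes differed between the siRNAs in DMSO (15 without FOXA1 siRNA DMSO replicate 3) and 25 of 48 in lapatinib, where 43.2% and 44.9% of all genes did. The share of all genes without that replicate is not given here, so the count of 15 has no background beside it. The following log2 differences of FOXA1 siRNA against NT siRNA are again descriptions. In the plasminogen system PLAU differed by -1.12 in DMSO and -1.26 in lapatinib and PLAUR by 0.50 and 1.16. Among the membrane repair genes PTRF, a caveolar coat gene, differed by 0.78 and 0.35, EHD2 by -0.47 and -1.08 and CAPN2 by -0.15 and -0.22, with DYSF at 0.83 and 0.42 and CAPN1 at 0.18 and 0.33. S100A6 differed by 0.42 and 0.24. In the same order of DMSO and lapatinib, PDCD6, which encodes ALG-2, differed by 0.13 and 0.29, SRI, which encodes sorcin, by 0.15 and 0.22, PDCD6IP by 0.23 and 0.02 and VPS4A by 0.18 and 0.19. TSG101 differed by -0.03 and -0.29 and CHMP4A by -0.01 and -0.17. RASA1 differed by 0.24 and 0.29, GRB2 by 0.15 and 0.12, SRC by 0.28 and 0.42 and PRKCA by -0.11 and -0.37. DUSP1 differed by -0.73 and -0.35, FKBP5 by -0.49 and -0.45 and KLF9 by 0.05 and 0.21.

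**Figure D4:**
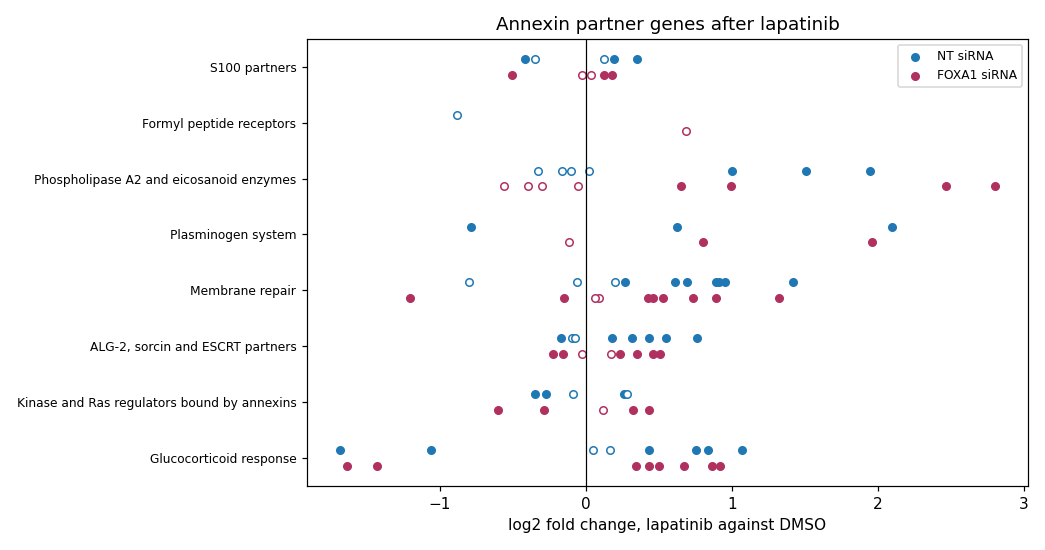
Log2 fold change with lapatinib of every tested partner gene by list, in NT siRNA (blue) and FOXA1 siRNA (red) cells, with filled points for genes that passed (edgeR). PLAU (2.10 and 1.96), AHNAK (1.42 and 1.32) and FKBP5 (-1.68 and -1.63) lie far from 0 in both arms. Nothing is read from the points of the sparse genes ALOX5 and ALOX5AP.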

How the data were processed

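RNAseq of 12 SKBR-3 samples was grouped by the labels of the samples into 4 groups of 3. The members, the partner lists and the tests were chosen with earlier results of these data known. For each gene of a library the authors deposited an expected count, which is an estimate of its reads, a TPM value and a transcript length. By the methods, STAR aligned the reads to hg38 and Salmon quantified them, while the submitters' processing notes name RSEM, R 3.2.2 and DESeq2 1.12.3. The labels name both a KAPA stranded and a TruSeq kit.

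Expected counts (87.5% to 88.1% already whole) were rounded. The deposited TPM values were used only to check the order of levels, which was the same for 9 of 9 members. Rows without a symbol held at most 0.0459% of a library and were not removed. edgeR 4.0.16 in R 4.3.3 was used for its quasi-likelihood test (glmQLFit, glmQLFTest) after TMM normalization, on the 6 samples of each comparison or on all 12 for the interaction, with genes of at least 10 counts in at least 1 sample. P-values were adjusted by Benjamini-Hochberg over all genes tested, and a gene passed at an adjusted p under 0.05. SE is the log2 fold change divided by the square root of F. The procedures were tested on simulated data. Replicates of a group differed by more than sampling noise (chi-square per degree of freedom 3.75 to 18.5 over 12 pairs). Same-numbered samples deviated together in all 18 pairs of groups (r 0.238 to 0.626, over 12161 genes), so the number was tried as a block, but what it stands for is not given. Alternatives were RLE (DESeq2 size factors) and upper-quartile factors, no filter, at least 10 counts in every sample, DESeq2 1.42.0, all 12 samples in 1 model, the block, and leaving out each sample. Summing ANXA2 with its copies was added after seeing the data. All 9 members were named. Partner genes were named if they were S100A6, S100A10, S100A11 or a formyl peptide receptor, or among up to 2 genes per list, comparison and direction with the largest change among those that passed, of which some are not reported here. The genes most like a member were the 5 highest for ANXA1 and the 2 highest for the others. The counting errors given for ANXA1 and the limit of 3 counts cover counting error only, since amplified reads are not independent molecules. Promoters and coordinates come from RefSeq (GRCh38.p14), while the strands given with the gene coordinates and the exon overlaps come from the GENCODE annotation. Tables and plots were made in Python 3.11.15 (numpy 2.4.6, pandas 2.3.3, matplotlib 3.10.9).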

Additional observations from a re-analysis of the deposited data

Results flagged for a closer look

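The lapatinib responses of 2 members differed between the siRNAs by edgeR's interaction term. ANXA1 responded more negatively in FOXA1-depleted cells (difference -1.07 on the log2 scale, SE 0.19, adjusted p = 0.0067, edgeR), from samples that also entered the choice of this gene. Nothing is therefore read from this p-value. The response of ANXA1 was -0.30 with NT siRNA, where raw counts were 23 to 39, and -1.38 with FOXA1 siRNA. ANXA6 responded more positively in FOXA1-depleted cells (difference 0.49, SE 0.06, adjusted p = 0.0014, edgeR), with responses of 0.37 and 0.85.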

How the results depend on the processing

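Across the alternatives, 384 of 399 member results in the lapatinib and interaction comparisons kept their side of the threshold, 11 newly passed and 4 no longer passed, and no passing result changed direction. Without each sample in turn the number of members passing was 3 to 5 (lapatinib, NT siRNA), 5 to 7 (lapatinib, FOXA1 siRNA), and 2 in every fit (interaction). The shares of all genes passing when a sample was left out are not given here. Nothing particular to the members or partner genes is therefore read from such counts. The interaction of ANXA1 lay between -1.13 and -0.99 and that of ANXA6 between 0.43 and 0.52. ANXA5 with NT siRNA also passed under RLE (adjusted p = 0.0426), upper-quartile factors (0.0344), no filter (0.0375), the stricter filter (0.0401), DESeq2 (0.0430) and the model of all 12 samples (0.0114), all against the 0.0519 of edgeR's quasi-likelihood test. ANXA9 with NT siRNA passed in the model of all 12 samples (edgeR adjusted p = 0.0445). With the replicate block 6, 8 and 2 members passed in these comparisons. In the same order 9223 of 13713, 9430 of 13745 and 2854 of 14012 genes passed with the block. Beside ANXA5 and ANXA11 the block changed no other member's lapatinib or interaction call. The partner genes passing for the interaction numbered 1, against 2 with upper-quartile factors, 2 with at least 10 counts in every sample, 5 with DESeq2, 14 with the replicate block and 1 to 4 when a sample was left out. Of all genes 1451 of 11837 passed with DESeq2 and 2854 of 14012 with the block. The partner genes differing between the siRNAs in DMSO numbered 15 to 25 when a sample was left out. The low counts of ANXA1 with NT siRNA limit its response there. The cause of these moves was not tested.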

Other observations

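The ANXA8 genes, which are near-identical copies on chromosome 10, were listed as ANXA8, ANXA8L1 and ANXA8L2, with counts that were mostly not whole, so reads were split between them and only their sum is given. The summed normalized counts were 81.7 to 139.8 with NT siRNA and DMSO and 76.5 to 78.4 with NT siRNA and lapatinib. They were 594 to 765 with FOXA1 siRNA and DMSO and 443 to 556 with FOXA1 siRNA and lapatinib, so the FOXA1 siRNA means were 6.06-fold and 6.49-fold the NT means. These values were not tested and were picked out with the siRNA results known. ANXA10 had 0 counts in all libraries and ANXA13 at most 1. The ANXA2 copies ANXA2P1 and ANXA2P3 had 62 to 135 and 2 to 20 counts, and the ANXA2 receptor gene, listed as C5orf39, had 9 to 27.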
